A study of Homo sapiens with 16 samples.

Results

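Of the 22445 genes in the expression table of Molm14 cells, 10 encode enzymes that make, elongate and desaturate fatty acids, and their mRNA was followed through 4 treatment groups. The members, ACLY, ACACA, FASN, SCD, FADS1, FADS2, ELOVL5, ELOVL6, ACSS2 and ME1, were chosen by symbol, with earlier results of these data known. All 10 were found. Molm14 is an established line of acute myeloid leukaemia that carries a KMT2A fusion. The groups were DMSO (vehicle), iDOT1L (0.16 uM EPZ5676, an inhibitor of the histone methyltransferase DOT1L), iEZH2 (0.3 uM GSK126, an inhibitor of the histone methyltransferase EZH2) and Combo (both compounds together). By the design text treatment lasted 7 days, with medium and compound replaced on day 4. The extraction protocol has RNA taken 3 days after a sort, so the length of treatment is in doubt. Each group had 4 RNA-seq libraries of this 1 line, grown in medium with serum.

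Cytosolic fatty acid synthesis starts from acetyl-CoA, which ACLY makes from citrate and ACSS2 from acetate. ACACA carboxylates it to malonyl-CoA, FASN builds palmitate from both with NADPH, and ME1, the cytosolic malic enzyme, is a source of that NADPH. ELOVL6 lengthens palmitate and SCD puts the first double bond into saturated chains, while FADS2, ELOVL5 and FADS1 desaturate and lengthen polyunsaturated chains from the diet or medium. Transcription of most of these genes is known to be driven by the sterol-regulated factors SREBP1 and SREBP2, and by LXR and ChREBP.

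With both inhibitors, 6 of the 10 mRNAs fell against DMSO and none rose, where 8.8% of all genes tested fell and 7.22% rose. The desaturases moved furthest: the mean normalised count of FADS2 in Combo was 25.9% of that in DMSO, that of SCD 28.55% and that of FADS1 46.0%. The 3 core synthesis enzymes fell less, to 70.8% for ACLY, 67.1% for ACACA and 60.8% for FASN. SCD also fell with each inhibitor alone, ME1 fell with iDOT1L alone, and the elongase genes ELOVL5 and ELOVL6 passed the test in no comparison. Here a gene is said to have risen or fallen where limma, fitted to all 22331 genes tested, gave a Benjamini-Hochberg adjusted p below 0.05.

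Values are normalised counts, that is, estimated read counts after the authors' scaling between libraries. They summed to between 22.4 M and 24.1 M per library, and the read depth before scaling is unknown. No label tells whether the 4 libraries of a group came from separate cultures, so the p-values reflect the spread between libraries, which may be technical. In bulk RNA, fewer cells that express a gene and less of its RNA per cell cannot be told apart. All 10 myeloid markers looked for were present, with values from 46.0 to 21832. Their sum was 28563.6 to 35298.0 with DMSO, 39197.5 to 45482.7 with iDOT1L, 22170.1 to 30134.9 with iEZH2 and 37359.6 to 45431.8 with Combo. The sums with iDOT1L and Combo thus lay above DMSO without overlap. Such a sum follows the abundant genes: over all libraries LYZ ranged from 2225 to 21832 and PTPRC from 4581 to 13778. ITGAX reached at most 437, and the direction of each single marker is not given here. The 4 adipocyte markers summed to between 2.3 and 16.3 in every library, with CIDEC at a median of 0, and the 2 hepatocyte markers in the table summed to at most 11.8. The 3 fibroblast markers summed to 86.8 to 145.4 with DMSO, 133.5 to 276.4 with iDOT1L, 98.9 to 300.8 with iEZH2 and 234.9 to 297.4 with Combo. The 4 epithelial markers, of which KRT8 and KRT18 made up nearly the whole, summed to 1011.3 to 1290.0 with DMSO, 570.9 to 793.0 with iDOT1L, 1083.1 to 1287.4 with iEZH2 and 757.6 to 1034.7 with Combo. The 3 B cell markers summed to 80.1 to 97.7 with DMSO, 95 to 136.2 with iDOT1L, 64.5 to 71.8 with iEZH2 and 73.2 to 141.0 with Combo. The 2 T cell markers in the table summed to at most 58.2. The part of these marker changes in the results was not tested. The mRNAs of the targets are no check of enzyme inhibition, and neither DOT1L with iDOT1L (adjusted p = 0.814) nor EZH2 with iEZH2 (adjusted p = 0.341) passed the test. With the replicate number as a block in the fit EZH2 was called higher with iEZH2 (0.25 on the log2 scale, adjusted p = 0.0166).

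**Figure D1:**
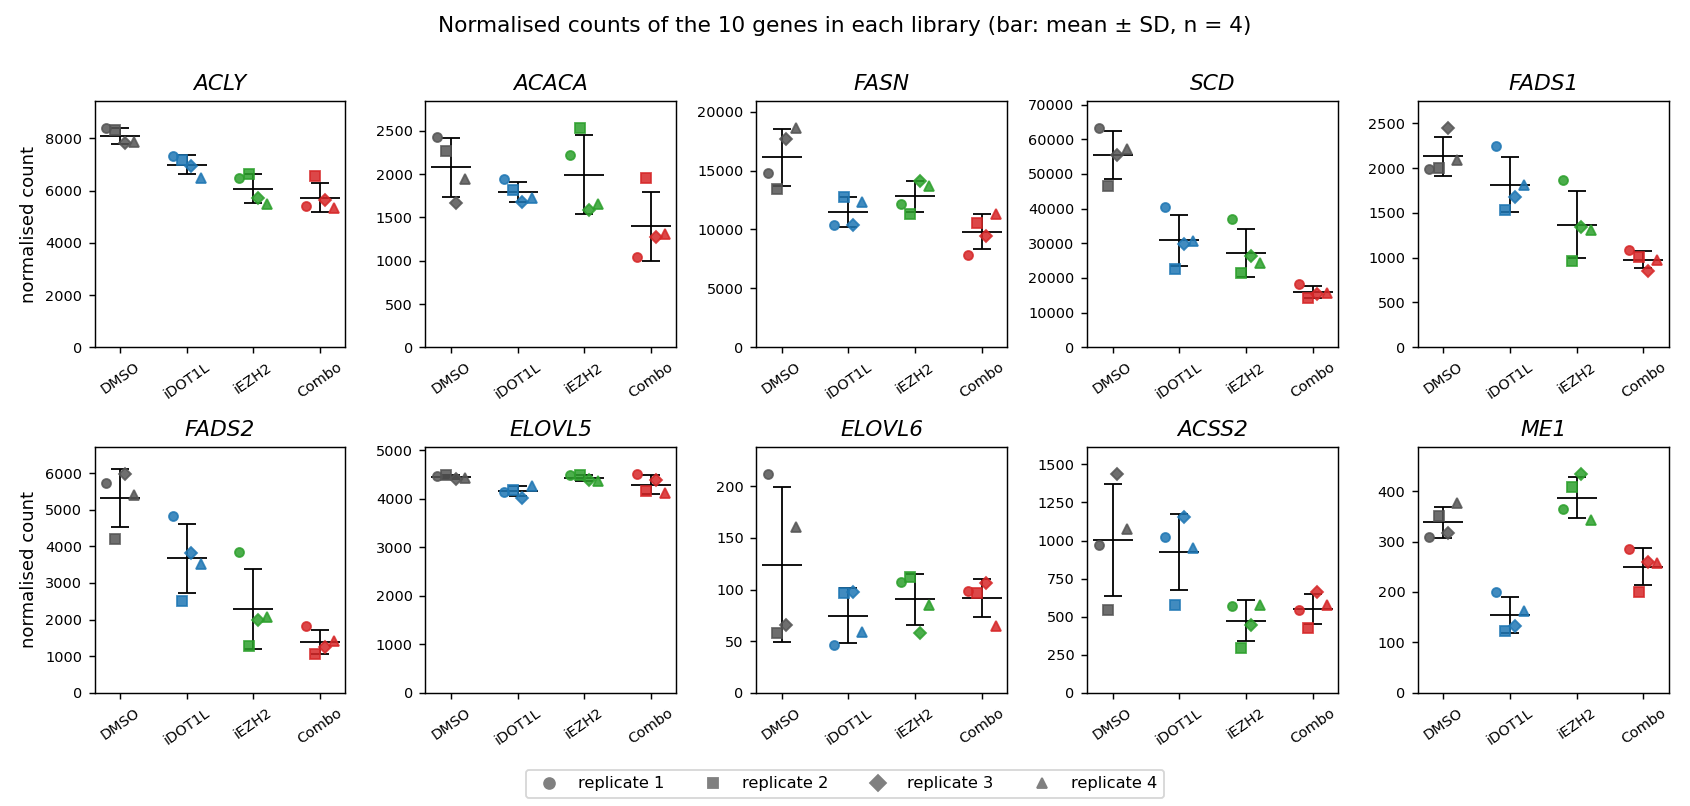
Normalised counts (y axes, linear from 0, a scale for each gene) of the 10 genes in the 16 libraries, by group (x axes). Symbols give the replicate number, and horizontal bars with whiskers the mean ± SD of 4 libraries. All 4 Combo values of SCD, between 14075 and 18328, lie below the lowest of the other groups, 21335, whereas the 16 values of ELOVL5 stay between 4017 and 4511.

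SCD, the stearoyl-CoA desaturase, had the highest normalised counts of the 10 genes. Its normalised counts in replicates 1 to 4 were 63154, 46412, 55416 and 57275 with DMSO. They were 40454, 22485, 29765 and 30771 with iDOT1L, and 37137, 21335, 26310 and 24200 with iEZH2. With Combo they were 18328, 14075, 15346 and 15713. Each single treatment lay below DMSO without overlap, the single treatments overlapped each other, and Combo lay below both. The log2 fold change against DMSO was -0.87 ± 0.17 (SE, limma adjusted p = 0.00346) with iDOT1L. It was -1.05 ± 0.17 (adjusted p = 0.00184) with iEZH2 and -1.81 ± 0.17 (adjusted p = 1.23e-06) with Combo. Combo was lower than iDOT1L by a log2 difference of -0.94 ± 0.17 (adjusted p = 0.00686) and than iEZH2 by -0.75 ± 0.17 (adjusted p = 0.0142). These 5 SCD calls held whichever of the libraries compared was left out.

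FADS2 encodes the desaturase that opens the polyunsaturated pathway, and FADS1 the desaturase that follows after elongation. FADS2 had normalised counts of 5718, 4203, 5975 and 5397 with DMSO and of 4819, 2513, 3826 and 3513 with iDOT1L. It had 3856, 1280, 1981 and 2058 with iEZH2, and 1824, 1053, 1243 and 1404 with Combo. DMSO and iDOT1L overlapped, while iEZH2 and Combo lay wholly below DMSO, and replicate 1 was far above the others within iEZH2. FADS2 fell by 1.32 ± 0.28 on the log2 scale with iEZH2 (limma adjusted p = 0.0156) and its log2 fold change with Combo was -1.96 ± 0.28 (adjusted p = 0.000163). With iDOT1L the log2 fold change was -0.56 ± 0.28 (adjusted p = 0.312, and adjusted p = 0.0109 with the replicate number as a block). Combo lay below iDOT1L by 1.40 on the log2 scale (adjusted p = 0.0161), with no overlap. The FADS2 call with iEZH2 was lost without DMSO 1, DMSO 3 or iEZH2 3 (adjusted p of up to 0.0564), and that of Combo against iDOT1L without iDOT1L 1 or Combo 3 (up to 0.068).

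FADS1 followed at a lower level. Its normalised counts were 1990, 1998, 2443 and 2089 with DMSO and 2243, 1533, 1680 and 1809 with iDOT1L. They were 1862, 963, 1342 and 1313 with iEZH2 and 1086, 1006, 853 and 971 with Combo. The iDOT1L values overlapped DMSO, and those of iEZH2 and Combo did not. FADS1 fell by 0.67 ± 0.15 with iEZH2 (log2, limma adjusted p = 0.0188) and its log2 fold change with Combo was -1.12 ± 0.15 (adjusted p = 4.35e-05). The difference with iDOT1L was -0.24 ± 0.15 (adjusted p = 0.454). Combo lay below iDOT1L by 0.88 ± 0.15 (adjusted p = 0.00492). The FADS1 call with iEZH2 was lost without DMSO 3 or iEZH2 2 (adjusted p of up to 0.0766). The spans of FADS1 and FADS2 overlap on opposite strands of chromosome 11 (61799625 to 61829318 and 61792980 to 61867354, GRCh38). Of the 31-base words in their GENCODE transcripts, 3.8% of those of FADS1 and 3.6% of those of FADS2 occur in the other gene, and whether counting used strand is not known here.

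The reference table of promoters, from RefSeq on GRCh38.p14, held 14 windows for 9 of the 10 genes, all but FASN. Each window ran from 250 bases before to 50 bases after an annotated start. The letters upstream of a start are shown for SCD, FADS1 and ACLY, which fell with Combo, and for ELOVL5, which passed no test. Capitals mark CCAAT or its complement ATTGG and, in ELOVL5, also the E-box CACGTG.
SCD, chr10:100346983-100347232, plus strand: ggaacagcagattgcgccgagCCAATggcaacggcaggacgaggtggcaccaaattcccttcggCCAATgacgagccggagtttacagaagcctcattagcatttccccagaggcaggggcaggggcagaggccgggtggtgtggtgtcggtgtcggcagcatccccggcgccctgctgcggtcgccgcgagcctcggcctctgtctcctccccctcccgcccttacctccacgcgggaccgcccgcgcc
FADS1, chr11:61817004-61817253, minus strand: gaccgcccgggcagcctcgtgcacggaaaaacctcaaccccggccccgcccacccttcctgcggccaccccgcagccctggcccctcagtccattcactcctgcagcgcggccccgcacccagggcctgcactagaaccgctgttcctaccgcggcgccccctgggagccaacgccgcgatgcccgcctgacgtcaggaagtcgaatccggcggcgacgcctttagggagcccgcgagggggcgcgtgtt
ACLY, chr17:41919023-41919272, minus strand: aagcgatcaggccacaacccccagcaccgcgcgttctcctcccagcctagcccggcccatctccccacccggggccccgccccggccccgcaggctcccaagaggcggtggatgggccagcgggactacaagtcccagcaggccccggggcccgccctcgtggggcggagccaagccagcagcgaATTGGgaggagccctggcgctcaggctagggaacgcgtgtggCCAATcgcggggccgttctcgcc
ELOVL5, chr6:53348951-53349200, minus strand: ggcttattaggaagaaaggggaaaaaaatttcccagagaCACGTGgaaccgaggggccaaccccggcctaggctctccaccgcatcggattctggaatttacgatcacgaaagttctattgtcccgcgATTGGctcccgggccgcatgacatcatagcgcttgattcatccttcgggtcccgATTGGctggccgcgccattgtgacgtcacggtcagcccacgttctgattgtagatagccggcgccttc
SCD carries 2 CCAAT copies here, ACLY 2 and ELOVL5 2, and FADS1 none, so these letters occur both in genes that fell and in 1 that passed no test. Both strands of the whole windows were searched. CCAAT occurred in 8 of the 14 windows, those of ACACA, ACLY, ACSS2, ELOVL5, FADS2 and SCD, against 34.61% of all 35116 windows in the table. The GC box GGGCGG occurred in 11 of 14 windows (44.95% of all), CACGTG in 1 (7.26%), and the sterol regulatory element TCACNCCAC in 0 (1.13%). With so low a share over all windows, 0 of 14 cannot tell whether these genes lack the element. Only this 1 form of it was searched. Matches of different motifs did not overlap in the 14 windows. The windows of ACLY overlap each other, as do those of FADS2, so the 14 are not independent. Both ACLY windows hold the same 2 CCAAT copies. A match describes letters only, and which start these cells use is not known from the table.

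ACLY, ATP citrate lyase, had normalised counts of 8384, 8337, 7823 and 7851 with DMSO and of 7325, 7182, 6951 and 6491 with iDOT1L. It had 6471, 6625, 5732 and 5485 with iEZH2 and 5406, 6547, 5625 and 5342 with Combo. All 3 treated groups lay below DMSO with no overlap, and iEZH2 and Combo overlapped. ACLY fell by 0.42 ± 0.08 with iEZH2 (log2, limma adjusted p = 0.00677) and by 0.50 ± 0.08 with Combo (adjusted p = 0.000255), and both calls held whichever library was left out. With iDOT1L the log2 fold change was -0.21 ± 0.08 (adjusted p = 0.152, and adjusted p = 0.0176 with the replicate block).

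ACACA encodes acetyl-CoA carboxylase 1, which commits acetyl-CoA to fatty acid synthesis. Its normalised counts were 2430, 2274, 1669 and 1949 with DMSO and 1940, 1823, 1677 and 1729 with iDOT1L. They were 2224, 2530, 1582 and 1652 with iEZH2 and 1039, 1957, 1278 and 1310 with Combo. Combo replicate 2 lay inside the DMSO range and the other 3 Combo libraries below it. The log2 fold change with Combo was -0.60 ± 0.17 (limma adjusted p = 0.0242), and the call was lost without DMSO 1, DMSO 2, Combo 1, Combo 3 or Combo 4 (adjusted p of up to 0.0824). Neither iDOT1L (-0.20 ± 0.17, adjusted p = 0.606) nor iEZH2 (-0.07 ± 0.17, adjusted p = 0.894) passed.

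FASN, fatty acid synthase, had normalised counts of 14832, 13416, 17686 and 18583 with DMSO and of 10398, 12752, 10409 and 12343 with iDOT1L. It had 12136, 11286, 14082 and 13702 with iEZH2 and 7863, 10582, 9465 and 11306 with Combo. The iDOT1L and Combo libraries lay below all DMSO libraries, and those of iEZH2 overlapped DMSO. FASN fell by 0.49 ± 0.12 with iDOT1L (log2, limma adjusted p = 0.0199) and by 0.72 ± 0.12 with Combo (adjusted p = 0.000367). The call with iDOT1L was lost without DMSO 3, DMSO 4, iDOT1L 1 or iDOT1L 3 (adjusted p of up to 0.0835). With iEZH2 the log2 fold change was -0.33 ± 0.12 (adjusted p = 0.173, and adjusted p = 0.0384 with the replicate block).

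ME1, whose enzyme supplies NADPH, had lower values with iDOT1L than with iEZH2. Its normalised counts were 309, 350, 317 and 376 with DMSO and 200.5, 122, 132 and 161 with iDOT1L. They were 364, 407, 434 and 344 with iEZH2 and 286, 199, 260 and 257 with Combo. The iDOT1L libraries were the lowest with 1 exception, since Combo replicate 2 lay just under iDOT1L replicate 1, and iEZH2 overlapped DMSO. ME1 fell by 1.15 ± 0.15 with iDOT1L (log2, limma adjusted p = 8.47e-05), a call that held without any 1 library. With iEZH2 the log2 fold change was 0.19 ± 0.15 (adjusted p = 0.592) and with Combo -0.44 ± 0.15 (adjusted p = 0.056). Combo was higher than iDOT1L by 0.71 ± 0.15 (adjusted p = 0.0163; lost without iDOT1L 3, Combo 1, Combo 3 or Combo 4). It was lower than iEZH2 by a log2 difference of -0.63 ± 0.15 (adjusted p = 0.0206; lost without iEZH2 2, iEZH2 3 or Combo 2).

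ACSS2, the acetyl-CoA synthetase of the cytosol and nucleus, varied widely within groups. Its normalised counts were 968, 541, 1437 and 1075 with DMSO and 1022, 574, 1155 and 948 with iDOT1L. They were 571, 292, 445 and 578 with iEZH2 and 546, 423, 663 and 578 with Combo. Replicate 2 was the lowest in each group, and DMSO replicate 2 lay inside the ranges of iEZH2 and Combo. The log2 fold change with iEZH2 was -1.06 ± 0.29 (limma adjusted p = 0.0587), and it passed with the replicate block (adjusted p = 6.46e-05). With Combo it was -0.80 ± 0.29 (adjusted p = 0.0754) and with iDOT1L -0.08 ± 0.29 (adjusted p = 0.927).

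ELOVL5, an elongase of polyunsaturated chains, had normalised counts of 4465, 4497, 4410 and 4426 with DMSO and of 4146, 4173, 4017 and 4269 with iDOT1L. It had 4481, 4488, 4388 and 4363 with iEZH2 and 4511, 4157, 4393 and 4113 with Combo. The iDOT1L libraries lay below DMSO without overlap, by a log2 fold change of -0.10 with a 95% interval of -0.23 to 0.03 (limma adjusted p = 0.428). In Combo the interval was -0.18 to 0.08, a narrow one beside those of the desaturases. ELOVL6, the elongase of palmitate, was scarce and scattered. It had 212, 58.2, 65.9 and 161 normalised counts with DMSO and between 46.2 and 113 in the 12 treated libraries. Its log2 fold change with Combo was -0.25 with an interval of -1.02 to 0.52, so that a change of the size seen for FASN was not detectable.

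**Figure D2:**
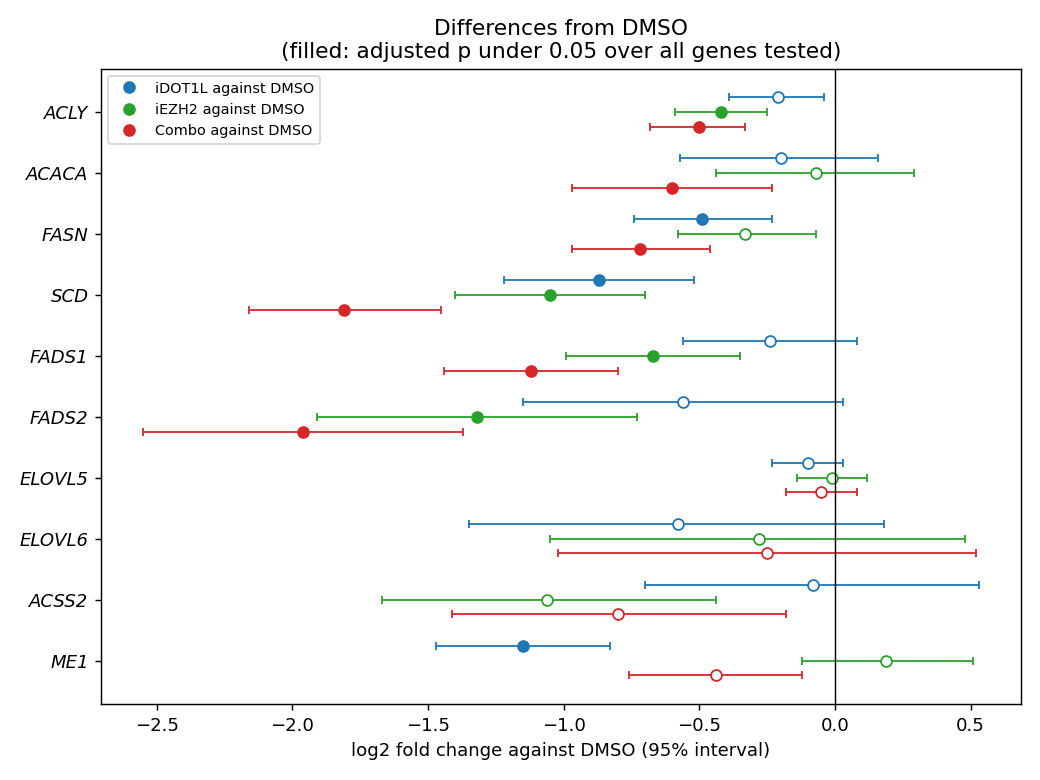
Log2 fold change against DMSO (x axis) of each gene (y axis) with iDOT1L, iEZH2 and Combo; points are limma estimates from 4 libraries per group and bars their 95% intervals. Filled points passed an adjusted p of 0.05 over all genes tested: 3 with iDOT1L, 4 with iEZH2 and 6 with Combo, all below 0.

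Counted over the 10 genes, 3 fell with iDOT1L (FASN, SCD and ME1), none rose and 7 did not pass, where 3.17% of all genes tested were called lower and 3.08% higher. The median log2 fold change of the 10 was -0.36, beside 0.01 over all genes. With the replicate block 5 fell, ACLY and FADS2 in addition, where 6.53% of all genes were called lower. Members whose iDOT1L and DMSO libraries did not overlap numbered 5, all lower, against 6.42% of all genes.

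With iEZH2, 4 fell (ACLY, SCD, FADS1 and FADS2), none rose and 6 did not pass, against 2.05% of all genes called lower and 1.3% higher. The median log2 fold change of the 10 was -0.37, beside 0.02 over all genes. The block gave 6, with FASN and ACSS2 in addition, against 5.89%. The iEZH2 and DMSO libraries of 4 members did not overlap, all lower, against 4.95% of all genes. Without DMSO 3 the calls left were 2, ACLY and SCD.

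With Combo, 6 fell (ACLY, ACACA, FASN, SCD, FADS1 and FADS2), none rose and 4 did not pass, against 8.8% of all genes called lower and 7.22% higher. The median log2 fold change was -0.66, beside 0.03 over all genes, and all 10 estimates were below 0. The Combo and DMSO libraries of 6 members did not overlap, all lower, against 10.3% of all genes. The 3 comparisons with DMSO share the DMSO libraries.

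Against iDOT1L, Combo was lower in 3 genes (SCD, FADS1 and FADS2) and higher in 1 (ME1), where 1.48% of all genes were called lower and 1.11% higher. Against iEZH2, it was lower in 2 (SCD and ME1) and higher in none, where 1.72% of all genes were called lower and 2.08% higher. Between the single treatments, ME1 was lower with iDOT1L than with iEZH2 by a log2 difference of -1.34 ± 0.15 (limma adjusted p = 2.25e-05), and the other 9 did not pass, against 3.06% of all genes called lower and 3.88% higher. With the replicate block 4 genes were also higher with iDOT1L than with iEZH2, against 7.35% of all genes, and ME1 stayed lower, against 6.91%. The 4 were ACLY (0.20, adjusted p = 0.0205), FADS1 (0.43, adjusted p = 0.0307), FADS2 (0.75, adjusted p = 0.00126) and ACSS2 (0.97, adjusted p = 7.11e-05).

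Whether the combination differed from the sum of the single treatments was asked with the interaction, the Combo difference less both single differences on the log2 scale. None of the 10 passed, with limma or with limma and the replicate block, nor did any of the 22331 genes (0% called). At an unadjusted p under 0.05 the limma interaction held 848 of the 22331 genes and 1 of the 10 members. That member was ME1, at 0.52 ± 0.21 (95% interval 0.07 to 0.97, adjusted p = 1). For SCD the interaction was 0.12 with an interval of -0.38 to 0.61, and for FADS2 -0.08 with -0.92 to 0.75. Intervals this wide leave room for departures from the sum in either direction.

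**Figure D3:**
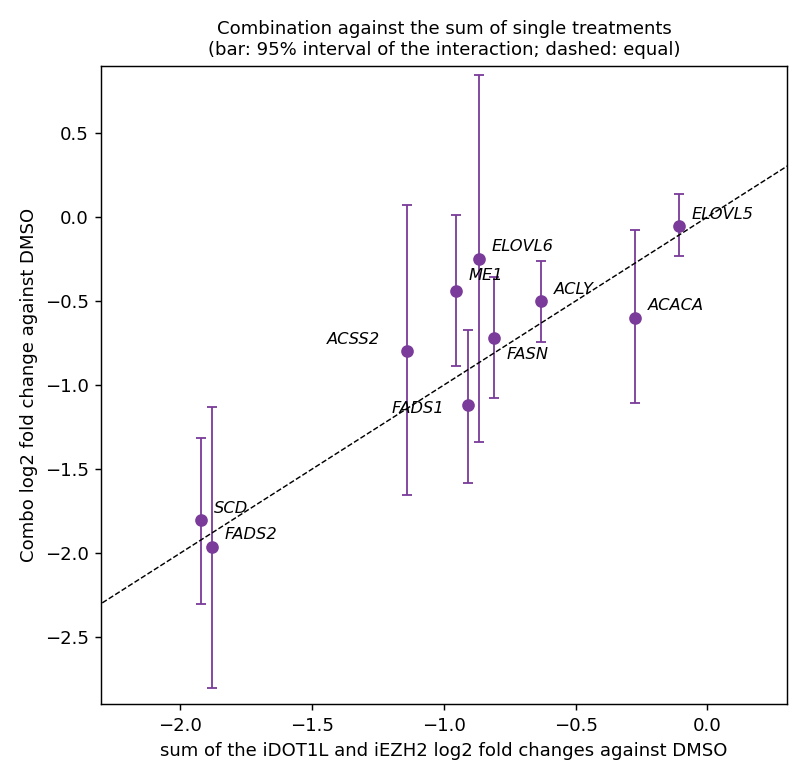
Combo log2 fold change against DMSO (y axis) plotted over the sum of the iDOT1L and iEZH2 log2 fold changes (x axis) for the 10 genes; bars are the 95% interval of the interaction and the dashed line marks equal values. The bars of 9 genes cross the line, and that of ME1, with an interaction interval of 0.07 to 0.97, does not. The intervals are not adjusted for the number of genes tested, and ME1 did not pass after adjustment.

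Levels of different genes were compared as normalised counts per kilobase of the longest coding transcript in GENCODE. With DMSO the order was SCD (10360 ± 1294, SD), FASN (1883 ± 282), ACLY (1866 ± 69.8), FADS2 (1466 ± 216), ELOVL5 (1444 ± 12.6), FADS1 (471 ± 47.1), ACSS2 (328 ± 120.3), ACACA (209 ± 34.1), ME1 (100.2 ± 9.14) and ELOVL6 (19.3 ± 11.6). FASN and ACLY, FADS2 and ELOVL5, and ACSS2 and ACACA did not differ beyond their SDs. With Combo SCD was still first at 2959 ± 333 per kilobase, and ELOVL5 came second at 1394 ± 61.8, with ACLY next at 1321 ± 128.6 within its SD. The median transcript length left 4 of the 10 DMSO ranks as they were and put FASN first, because its annotated coding transcripts have a median length of 363.5 bases beside 8565 for the longest.

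Of the level summed over the 10 genes per kilobase, SCD made up 55.1% to 60.1% with DMSO, 41.3% to 53.1% with iDOT1L, 42.6% to 52.1% with iEZH2 and 34.4% to 41.8% with Combo. As a share of all normalised counts in a library, not per kilobase, the 10 genes took 0.349% to 0.438% with DMSO, 0.232% to 0.312% with iDOT1L and 0.213% to 0.300% with iEZH2. With Combo the share was 0.170% to 0.180%. The library shares with DMSO lay above, and those with Combo below, all the others. In the share of SCD the highest Combo library (41.8%) lay just inside the iDOT1L range. The share of SCD depends on the lengths used: with median transcript lengths it was 13.4% to 17.0% with DMSO, 8.39% to 14.6% with iDOT1L, 8.75% to 13% with iEZH2 and 6.67% to 10.2% with Combo, and iDOT1L then overlapped DMSO.

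Libraries with the same replicate number moved together in some of these genes. Replicate 2 was the lowest of the 4 libraries in every group for SCD, FADS2 and ACSS2. Over 12270 genes with a mean of at least 50 normalised counts, replicate 2 was the lowest in every group for 8.84%. SCD was also highest in replicate 1 in every group, as were 4.77% of those genes. Taken within a replicate number, FADS2 with Combo was between 20.8% and 31.9% of its DMSO library, and SCD between 27.4% and 30.3%. Combo and DMSO were not taken as paired, so these ranges only describe libraries of the same number. For FADS2 with iEZH2 replicate 1 stood at 67.4% and the others between 30.5% and 38.1%. What the replicate number marks is not stated in the labels.

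**Figure D4:**
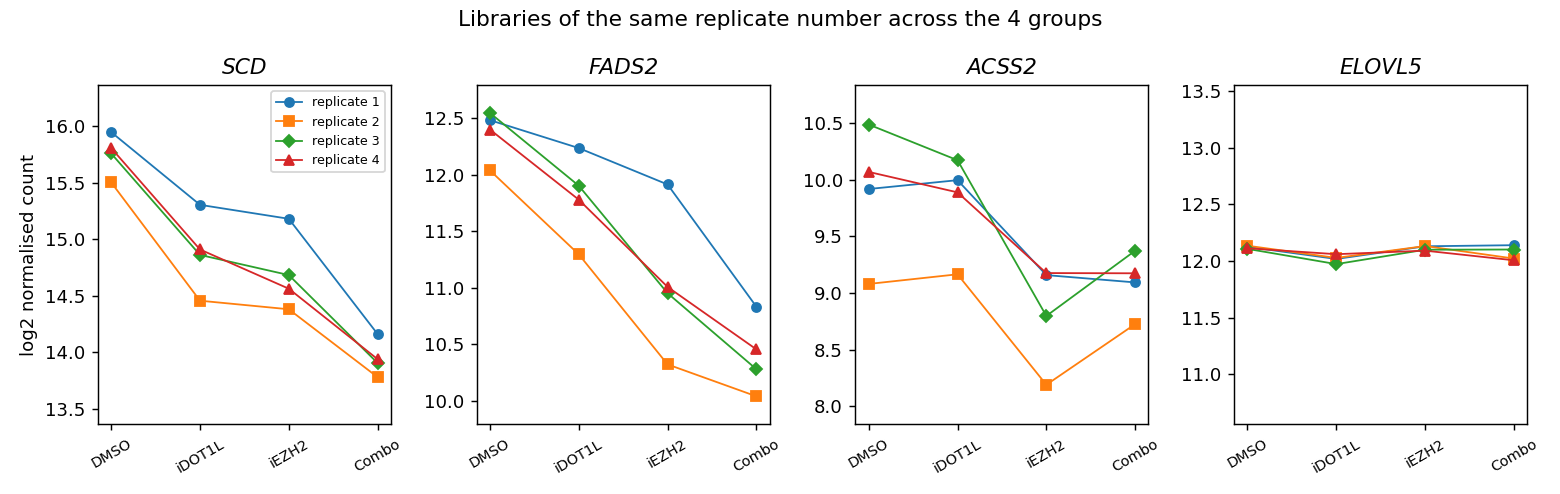
Log2 normalised counts (y axes, the same span in each panel) of SCD, FADS2, ACSS2 and ELOVL5 in the 4 groups (x axes), with a line for each replicate number. Replicate 2 is lowest in all 4 groups for SCD, FADS2 and ACSS2, and replicate 1 is highest in all 4 for SCD.

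The other genes of the pathway were followed in 8 lists, which share a few genes. Their counts with Combo stand beside 8.8% of all genes called lower and 7.22% higher, and those with iEZH2 and iDOT1L beside 2.05% and 3.17% called lower. Among 18 regulators of lipogenic transcription 7 fell with Combo, none rose and 11 did not pass. INSIG1, which holds SREBP in the endoplasmic reticulum and is itself an SREBP target, had a mean normalised count with Combo of 31.5% of that with DMSO (log2 fold change -1.69 ± 0.22, limma adjusted p = 4e-05). SREBF1 and SREBF2, the genes of the SREBP factors, fell by 0.69 ± 0.10 (adjusted p = 7.38e-05) and by 0.68 ± 0.11 (adjusted p = 0.000263). INSIG2 (-0.69 ± 0.22), MBTPS2, NR1H2 and the LXR gene NR1H3 (-0.67 ± 0.19) made up the 7, and the NR1H3 values overlapped DMSO. SCAP, the SREBP escort (-0.10 ± 0.10), and MLXIPL, the gene of ChREBP (0.38 ± 0.44), did not pass, and MLXIPL had a mean of 8.1 normalised counts with DMSO. The count was 4 without DMSO 3 or Combo 4, INSIG2 passed only without DMSO 2 or with all libraries, and NR1H3 was lost without DMSO 3 or Combo 1. With iEZH2 INSIG1, SREBF1 and SREBF2 fell, and INSIG1 alone was left without DMSO 1, DMSO 3 or iEZH2 2. There SREBF1 was also lost without DMSO 4 or iEZH2 4, and SREBF2 without iEZH2 3. With iDOT1L none of the 18 passed. With the replicate block 3 fell, among them INSIG1 (adjusted p = 1.7e-05) and SREBF1 (adjusted p = 0.0135), and 1 rose. That blocked fit called 6.53% of all genes lower with iDOT1L and 1270 of 22331 higher. The median log2 fold change of the list was -0.13 with Combo.

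Cholesterol synthesis, the other pathway under SREBP, had the highest count of any list. With Combo 21 of 22 genes fell, against 8.8% of all genes, and none rose, with a median log2 fold change of -0.86. DHCR7, the last reductase, fell by 1.54 ± 0.11 (limma adjusted p = 5.06e-08), and the log2 fold change of LSS, which closes the sterol rings, was -1.28 ± 0.15 (adjusted p = 7.99e-06). With iEZH2 18 fell, against 2.05% of all genes. With iDOT1L 4 fell, against 3.17%, or 17 with the replicate block, against 6.53%.

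The steps that feed carbon and NADPH into synthesis had counts with Combo near the background of 8.8% lower and 7.22% higher: 2 of 18 genes fell and 1 rose, with a median log2 fold change of -0.03. IDH1, a cytosolic NADPH source, fell by 0.70 ± 0.08 (limma adjusted p = 5.16e-06) and SLC25A1, the mitochondrial citrate carrier, by 0.72 ± 0.10 (adjusted p = 6.1e-05), while TALDO1 of the pentose phosphate pathway rose by 0.36 ± 0.09 (adjusted p = 0.0127). IDH1 and SLC25A1 also fell with iEZH2, where 1 was left without DMSO 3, DMSO 4, iEZH2 2, iEZH2 3 or iEZH2 4. None passed with iDOT1L. With the replicate block 3 fell and 1 rose, where 6.53% of all genes were called lower and 1270 of 22331 higher. Of 9 genes of the other carboxylase ACACB and of mitochondrial fatty acid synthesis none passed with any of the 3 treatments, ACACB itself at 0.21 ± 0.15 with Combo (adjusted p = 0.376).

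Among 18 other genes of elongation and desaturation, 3 rose and 3 fell with Combo (median -0.01), where 7.22% of all genes rose and 8.8% fell. SCD5, a desaturase of the SCD family, rose by 0.52 ± 0.10 with Combo (limma adjusted p = 0.00136) and by 0.45 ± 0.10 with iDOT1L (adjusted p = 0.00992), opposite to SCD. Its mean was 264 normalised counts with DMSO. The elongase genes ELOVL2 (0.83 ± 0.25, adjusted p = 0.0274) and ELOVL7 (2.01 ± 0.63, adjusted p = 0.0341) rose from means of 37.0 and 3.0 normalised counts. In the elongation cycle HSD17B12 fell by 0.46 ± 0.10 (adjusted p = 0.00222), and of the cytochrome b5 genes CYB5B, whose protein sits in the mitochondrial outer membrane, and the reductase CYB5R3 fell by 0.33 and 0.32. The number that rose was 1, SCD5, without DMSO 2, DMSO 3, DMSO 4 or Combo 3, and ELOVL7 was also lost without Combo 1 or Combo 4. With iDOT1L SCD5 rose and HSD17B12 and CYB5R3 fell, of which 0 or 1 fell whichever library was left out. HSD17B12 and CYB5B share 22.6% and 35.3% of their 31-base words with other genes, so their counts are uncertain.

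In activation, binding and esterification of fatty acids 9 of 28 genes fell and 2 rose with Combo (median -0.07; 8.8% and 7.22% of all genes). ACSL1, an acyl-CoA synthetase, fell by 0.66 ± 0.09 (limma adjusted p = 4.95e-05), and the lipid droplet coat genes PLIN3 and PLIN2 fell by 0.62 ± 0.10 (adjusted p = 0.000255) and 0.89 ± 0.16 (adjusted p = 0.000592). GPAT3, an acyltransferase of triglyceride synthesis, rose by 1.66 ± 0.32 (adjusted p = 0.00108) from a mean of 40.9, and FABP5, a fatty acid binding protein, by 0.83 ± 0.15 (adjusted p = 0.00086), with 20.8% of its words shared with other genes and its count uncertain. In fatty acid oxidation 6 of 30 fell and 4 rose with Combo (median 0.03), beside the same 8.8% and 7.22%. PPARD, a nuclear receptor for fatty acids, fell by 1.41 ± 0.17 (adjusted p = 1.56e-05) and ACOX3, a peroxisomal oxidase, by 0.74 ± 0.12 (adjusted p = 0.000283). HSD17B4 (0.38 ± 0.08) and HADH (0.34 ± 0.08) rose, and ECI2 rose from a mean of 7.6 normalised counts (3.39 ± 0.44), with 27.4% of its words shared with other genes, so its count is uncertain.

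Of 11 LXR target genes 3 rose and 4 fell with Combo (median -0.43), where 7.22% of all genes rose and 8.8% fell. ABCA1, a cholesterol exporter gene, rose by 1.10 ± 0.20 (limma adjusted p = 0.00085) and SMPDL3A, an acid sphingomyelinase-like phosphodiesterase gene, by 1.69 ± 0.20 (adjusted p = 7.9e-06). SREBF1, LPCAT3, NR1H3 and MYLIP fell, of which 2 were left without DMSO 3. SREBF1 and NR1H3 are also listed as regulators, and LPCAT3 under activation, binding and esterification, so these falls are counted again here. In LPCAT3 59.7% of the words are shared with EMG1, so its count is uncertain. Over all genes tested the median log2 fold change with Combo was 0.03.

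**Figure D5:**
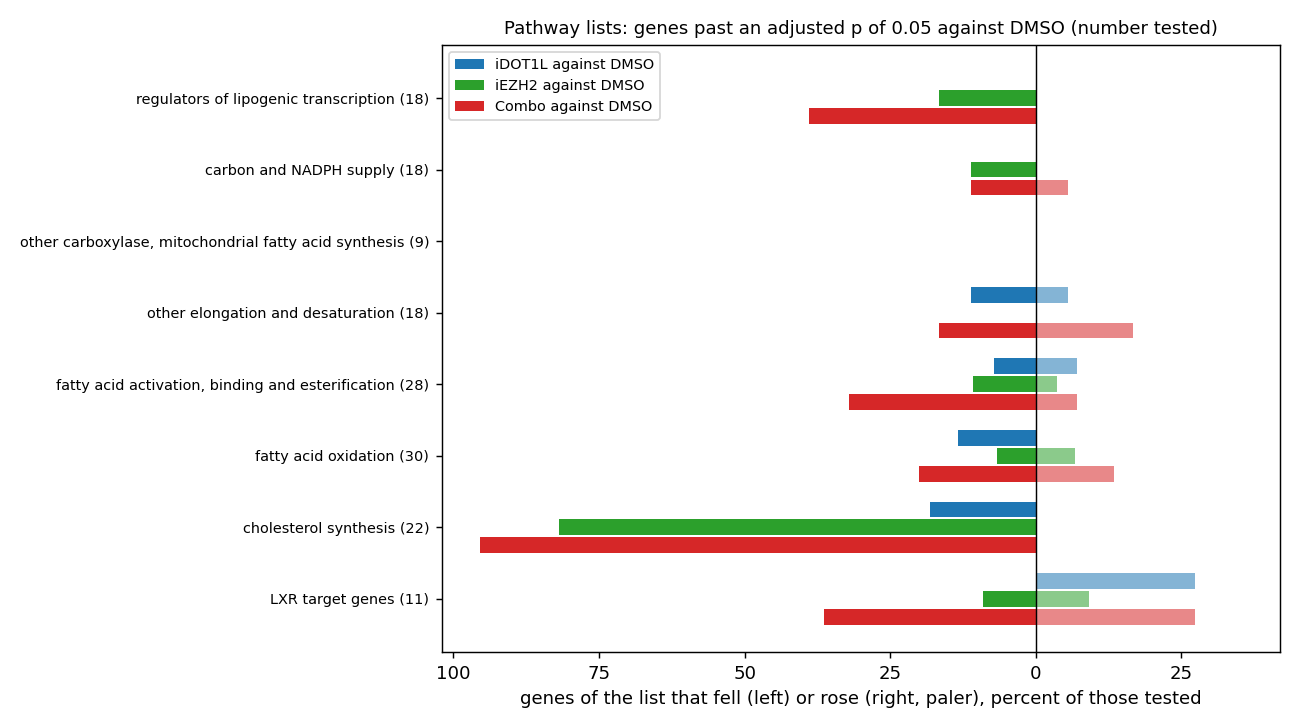
Share of the genes tested in each of the 8 lists (x axis, percent; the number tested is in parentheses on the y axis) that fell (left of 0) or rose (right, paler) against DMSO with iDOT1L, iEZH2 and Combo. Cholesterol synthesis reaches furthest, with 21 of 22 genes falling with Combo, and the list of ACACB and mitochondrial fatty acid synthesis has no bar.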

How the data were processed

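RNA of 16 libraries was sequenced in pairs of 150 bases. The deposited table held log2 values for 22445 Ensembl genes, which the authors had scaled between libraries and variance-stabilised; kallisto, DESeq2 and hg38 are named per the submitters' processing notes, with their versions and the annotation not given in the sources used here. By the extraction protocol RNA was taken 3 days after a sort, at odds with the 7 days of treatment in the design text, which was followed; the length of treatment is therefore in doubt. The lowest value, 6.2811 in all 16 libraries, stands for a count of 0, and inverting the transformation gave normalised counts. Read counts were not recovered, so no count model was used. Of the IDs 20784 matched GENCODE 29. No columns of other samples were present (0).

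Genes above 1 normalised count in at least 4 libraries (22331, all 10 members) were tested on log2(count + 1) with limma 3.58.1 in R 4.3.3 (trend, robust, 4 group means, 12 residual degrees of freedom), with Benjamini-Hochberg adjustment over all of them, and the script was tested on simulated data. This scale understates changes of low genes. Intervals are 95%. No block was used, because no source says that the submitters used one. A comparison was taken as paired where all 4 residual correlations between libraries of the same number were over 0.1. For iDOT1L with DMSO the lowest was 0.109 (highest 0.5), and for iEZH2 with DMSO 0.198 (highest 0.581). For iDOT1L with iEZH2 it was 0.113 (highest 0.639). Libraries of different numbers reached 0.326, 0.295 and 0.304 in this order, above those lowest values. Of 4 libraries, 3, 3 and 2 correlated best with their own number. In Combo with DMSO, iDOT1L and iEZH2, not taken as paired, these were 2, 3 and 3. The correlations therefore do not establish pairing, and nothing else was used to judge it. The blocked fit (9 residual degrees of freedom) used all 16 libraries, so its block terms and spread draw on Combo too. For the 3 comparisons taken as paired it is given where it changes a printed call or moves a printed count by over 1.5 times. Members, lists, motifs and markers were chosen with earlier results of these data known. Genes named are the 10 members, SREBF1, SREBF2, SCAP, INSIG1, INSIG2, NR1H3, MLXIPL, ACACB, DOT1L, EZH2 and, from each list, up to 3 rising and 3 falling genes with the lowest adjusted p in Combo against DMSO; others that complete a short count were added after their values were seen. FABP4, CD3E, HBB and TTR were not analysed here, and some genes that the rule names are not reported here. Genes with over 20% of their 31-base words in other genes are called uncertain. Alternatives were the deposited log2 values as they are, a pseudocount of 5, no filter, a mean of at least 10, libraries shifted to a common median, no trend, only the groups compared, the replicate block and leaving out each library.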

Additional observations from a re-analysis of the deposited data

Results flagged for a closer look

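In 180 groups of 4 libraries (45 named genes in 4 groups) 11 had 1 library far from the other 3, where chance gives about 1 in 20. None of the 11 was a group of the 10 fatty acid genes. Combo replicate 1 had the highest ELOVL7 (28.1 normalised counts, the others 7.17 to 9.15), the highest CYB5R3 (1422, the others 1222 to 1240) and the lowest DOT1L (4235, the others 6328 to 6650). ELOVL7 was also highest in replicate 1 of iEZH2 (29.98, the others 6.12 to 9.97) and of iDOT1L (9.49, the others 2.26 to 3.06). EZH2 was lowest in replicate 1 of DMSO (1579, the others 1968 to 2039) and of iEZH2 (1842, the others 2386 to 2445). DOT1L was highest in DMSO replicate 2 (6946, the others 6731 to 6761). NR1H3 was lowest in iDOT1L replicate 2 (75.9, the others 103.6 to 108.8). GPAT3 was lowest in iDOT1L replicate 4 (87.2, the others 105.3 to 108.2), and ACADSB was highest in Combo replicate 3 (626, the others 522 to 534).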

How the results depend on the processing

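For the 10 genes, counts of calls moved by over 1.5 times as follows. With the replicate block they were 5 for iDOT1L against DMSO, 6 for Combo against iEZH2 and 5 for iDOT1L against iEZH2, and over all genes 2729 for iDOT1L, 2180 for iEZH2 and 5499 for Combo against DMSO, 2240 for Combo against iDOT1L, 2136 for Combo against iEZH2 and 3185 for iDOT1L against iEZH2. The block changed calls of members outside the 3 comparisons taken as paired too. It added ACSS2 (adjusted p = 0.000197 by limma) and ME1 (adjusted p = 0.035) to Combo against DMSO (8 fell). It also added ACLY and ACSS2 to Combo against iDOT1L, and ACACA, FASN, FADS1 and FADS2 to Combo against iEZH2. Same-number correlations in those comparisons were all above 0, at 0.036 to 0.481, but not all over 0.1. Those comparisons were therefore not taken as paired, and their blocked values are given here only. The blocked fit still held all 16 libraries, so the blocked values printed for the single treatments also draw on the Combo libraries. Among the members in all comparisons and the other named genes against DMSO the block ended no call and turned no direction. With only the groups compared the members called were 2 for iEZH2 against DMSO, and all genes called were 450 for iEZH2 against DMSO, 511 for Combo against iEZH2 and 1004 for iDOT1L against iEZH2. Without trend and robust moderation they were 1 member for Combo against iEZH2, and over all genes 481 for iEZH2 against DMSO, 294 for Combo against iDOT1L and 1 for the interaction. A pseudocount of 5 gave 2 members for iDOT1L against iEZH2, as did a mean of at least 10. The median transcript length kept 4 of 10 ranks per kilobase.

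Leaving out 1 library at a time gave 2 to 3 members for iDOT1L against DMSO, 2 to 5 for iEZH2, 5 to 6 for Combo, 2 to 5 for Combo against iDOT1L, 1 to 2 for Combo against iEZH2, 1 to 3 for iDOT1L against iEZH2 and 0 for the interaction. Over all genes it gave 915 to 1279, 409 to 1046, 2642 to 3583, 199 to 567, 493 to 1349, 964 to 1802 and 0 to 1, in the same order. Among the members in all comparisons and the other named genes against DMSO, the log2 fold changes that crossed 0 with 1 library left out had these ranges, and none was called: ACACA with iEZH2 -0.196 to 0.03, ELOVL5 with iEZH2 -0.013 to 0.001 (and 0.005 with libraries shifted to a common median), ELOVL6 with iEZH2 -0.573 to 0.043, with Combo -0.538 to 0.078 and for Combo against iEZH2 -0.161 to 0.191, ACSS2 with iDOT1L -0.353 to 0.13, the interaction of SCD -0.027 to 0.275 and of FADS2 -0.325 to 0.205, and, with iEZH2, NR1H3 -0.298 to 0.012, MLXIPL -0.109 to 0.507 and ELOVL2 -0.13 to 0.247, besides MLXIPL with iDOT1L -0.077 to 0.538. The cause was not tested. ELOVL6, at 46.2 to 212 normalised counts, is the member whose spread allows the least.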
